A study of Bos taurus and Bos indicus with 12 samples.

Results

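The genes described here encode enzymes of cholesterol synthesis and a regulator of it. They were HMGCS1, FDPS, IDI1, FDFT1, SQLE, DHCR7 and INSIG1, and the members were all probe sets carrying 1 of these 7 symbols in the array platform's annotation. That gave 9 probe sets of 6 genes, out of 24016 probe sets tested, with 3 for FDFT1, 2 for HMGCS1 and 1 for each of the other 4 genes. No probe set carried the symbol IDI1, so the isomerase it encodes was not analysed here. Skin was sampled from 12 female cattle of 2 breeds, with 3 animals in each of 4 groups and 1 array per animal. Brahman cattle are indicine and known for resistance to the cattle tick Rhipicephalus microplus, and Holstein-Friesian cattle are dairy animals of taurine origin. The tick-naive groups were Holstein-Friesian animals aged 12 months and Brahman animals aged 18 months, neither ever exposed to the tick. The infested groups were Holstein-Friesian and Brahman animals aged 6 months after repeated heavy challenge, biopsied where larvae about 24 h old were attached. Each biopsy was 8 mm wide and about 10 mm deep, the whole thickness of the skin. Age and infestation therefore cannot be told apart within a breed, and age and breed cannot be told apart among naive animals.

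Cells build cholesterol from acetyl units. HMG-CoA synthase (HMGCS1) and the mevalonate kinases lead to isoprenoid units, which farnesyl diphosphate synthase (FDPS) joins. Squalene synthase (FDFT1) and squalene epoxidase (SQLE) make the linear precursor, lanosterol synthase (LSS) closes the rings, and later enzymes, ending with the reductase DHCR7 on one branch, finish the sterol. When membranes are short of sterol, the carrier SCAP brings SREBP transcription factors to the Golgi, where proteases release them to switch these genes on. INSIG1 holds SCAP back when sterol is plentiful and is itself an SREBP target. In skin, cholesterol is needed for the permeability barrier of the epidermis and for sebum.

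Expression is given as log2 RMA values, so a difference of 1 is a 2-fold change, and ± after a group mean is the SD over n = 3 arrays. A change was called at a Benjamini-Hochberg adjusted p of at most 0.05 in limma, a linear model fitted over all 24016 probe sets with the spread pooled over the 4 groups. Array medians lay between 6.576 and 6.728. RNA integrity, read as the 5' minus 3' signal of 5 control transcripts, lay between -1.39 and -0.82 in the 6 naive arrays. It was -2.73, -0.75 and -1.23 in infested Holstein-Friesian 1, 2 and 3, and -4.91, -2.56 and -2.07 in infested Brahman 1, 2 and 3. All infested Brahman arrays thus lay below all naive ones, so this RNA index and infestation can hardly be told apart in that breed. A Brahman call lost with the index as a covariate therefore cannot be credited to either. Of 6 basal keratinocyte markers measured, none was called in Holstein-Friesian and 1 was lower in Brahman animals, ITGB4 (-1.35, limma adjusted p = 0.036), while KRT5 and KRT14 averaged between 13.83 and 14.46 in every group. Macrophage markers were higher for 5 of 6 measured genes in infested Holstein-Friesian and for 3 of 6 in infested Brahman animals. Sebaceous gland markers were lower for 1 of 6 and 4 of 6, with a mean level of 9.96 to 10.04 in naive and 9.05 to 9.19 in infested Holstein-Friesian arrays. In Brahman arrays that level was 9.69 to 10.6 in naive and 8.49 to 9.22 in infested animals. Sweat gland markers were lower for 4 of 6 in each breed and higher for 1 in Brahman animals, fibroblast markers higher for 2 and 6 of 6, and adipocyte markers higher for 1 and 4 of 7. Over all probe sets, 2.68% were called higher and 2.34% lower in Holstein-Friesian, and 9.54% and 10.2% in Brahman animals. The part of these cell types in the results was not tested. In such whole biopsies fewer cells of a type and less RNA per cell cannot be told apart.

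Most cholesterol synthesis probe sets did not pass the test in either breed. In Holstein-Friesian animals 1 of 9 passed, a low-signal HMGCS1 probe set that fell in infested skin, where 5.02% of all probe sets passed in either direction, 2.34% lower and 2.68% higher. Among Brahman animals 1 of 9 passed, an FDFT1 probe set that fell, where 19.8% of all probe sets passed, 10.2% lower and 9.54% higher. With 9 probe sets, a single call is too few to set against either share. None rose in these fits. At an unadjusted p of 0.05, 2 of 9 were under it in Holstein-Friesian and 3 of 9 in Brahman animals, against 21.6% and 34.7% of all probe sets. The arrays of infested and naive Holstein-Friesian animals did not overlap for 3 of the 9 probe sets, all lower when infested. Of all probe sets 16.0% were lower without overlap there. The 3 include the low-signal Bt.21724.3.A1_at of FDFT1, which stayed between 3.33 and 3.71. In Brahman animals the arrays did not overlap for 2 of 9, both lower, against 19.3% of all probe sets lower without overlap. With the probe set of highest mean for each gene, the median difference over the 6 genes was 0.02 in Holstein-Friesian and 0.08 in Brahman animals, beside -0.03 and 0.04 over all probe sets. The sign of these medians turned with the choice of probe set: with all probe sets of a gene averaged they were -0.17 and -0.28, and over the 9 probe sets -0.19 and -0.05. Without naive Brahman 3 the Brahman median over genes was -0.15.

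**Figure D1:**
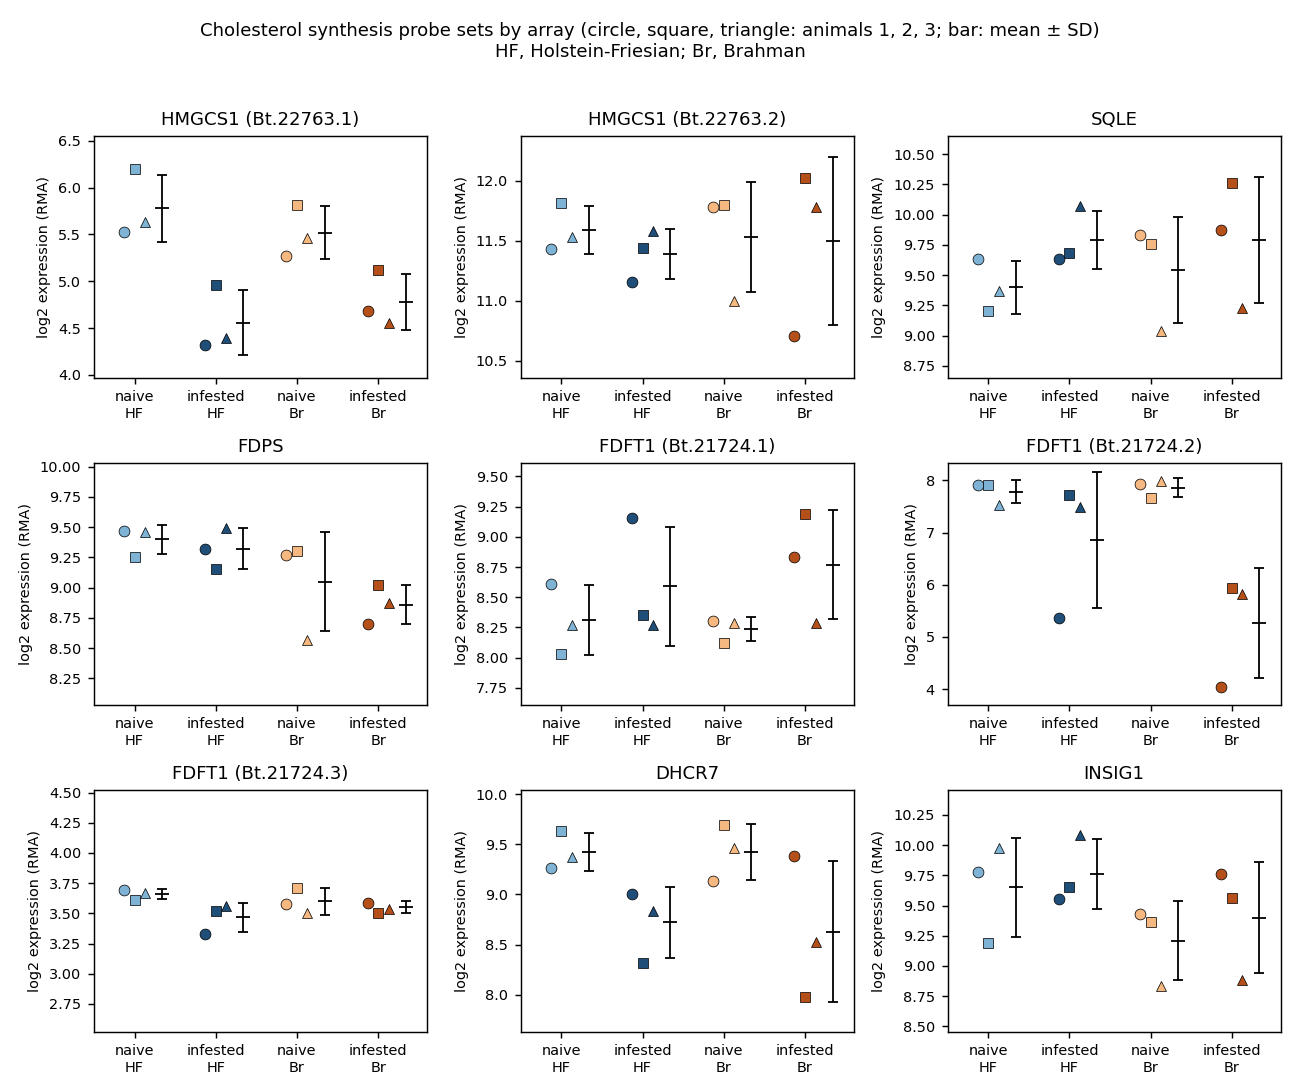
RMA expression on the log2 scale of the 9 probe sets in each of the 12 arrays, by breed and infestation, with the group mean and SD (n = 3) to the right of the points; each panel has its own axis range. FDFT1 probe set Bt.21724.2.S1_a_at has its lowest 4 values, 4.05 to 5.93, in infested Holstein-Friesian 1 and the 3 infested Brahman animals, below the other 8 arrays at 7.49 to 7.98.

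HMGCS1, the synthase that makes HMG-CoA, had 2 probe sets, which differed in their result. Probe set Bt.22763.2.S1_a_at, whose suffix marks probes shared by alternative transcripts of 1 gene, read 11.43, 11.81 and 11.53 in naive Holstein-Friesian and 11.16, 11.44 and 11.58 in infested Holstein-Friesian arrays. Its Brahman values were 11.78, 11.80 and 11.00 in naive and 10.71, 12.02 and 11.78 in infested arrays. All 4 groups overlapped, the group means ran only from 11.39 to 11.59, and no neighbours in that order differed beyond their spread. The infestation difference was -0.20 in Holstein-Friesian animals (95% interval -0.91 to 0.51, limma adjusted p = 0.777). It was -0.03 in Brahman animals (-0.74 to 0.68, limma adjusted p = 0.965).

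The other HMGCS1 probe set, Bt.22763.1.S1_at, had a low signal, under the 40 percent quantile of all probe sets at 6.07. It read 5.53, 6.20 and 5.63 in naive and 4.32, 4.96 and 4.40 in infested Holstein-Friesian arrays. Brahman arrays gave 5.27, 5.82 and 5.46 when naive and 4.68, 5.12 and 4.55 when infested. Every infested array lay below every naive one of its own breed. The probe set fell from 5.78 ± 0.36 to 4.56 ± 0.35 in Holstein-Friesian animals, by 1.22 on the log2 scale, with an SE of 0.25 and a limma adjusted p of 0.0231. The call was lost without infested Holstein-Friesian 3 (limma adjusted p = 0.0799) and without naive Holstein-Friesian 1 (0.0651) or 2 (0.0832). The Brahman difference was -0.73 (95% interval -1.27 to -0.19, limma adjusted p = 0.059), with means of 5.52 ± 0.28 and 4.78 ± 0.30. The breed difference in this effect was 0.49 with an SE of 0.35 (limma adjusted p = 0.722). In order of group means, the 2 naive groups stood above infested Brahman and then infested Holstein-Friesian animals, and within each pair of breeds the groups did not differ beyond their spread. The HMGCS1 mRNA therefore has 1 probe set that fell and 1 that did not pass, and the files do not say where on the transcript either lies.

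FDPS, which makes farnesyl diphosphate for sterols and for protein prenylation, was not called in any comparison. Its values were 9.47, 9.25 and 9.46 in naive and 9.32, 9.15 and 9.49 in infested Holstein-Friesian arrays. Brahman values were 9.27, 9.30 and 8.57 in naive and 8.70, 9.02 and 8.87 in infested arrays. Infestation gave a difference of -0.07 in Holstein-Friesian animals (95% interval -0.51 to 0.36) and of -0.18 in Brahman animals (-0.62 to 0.25). Both intervals leave out a change of 1 on the log2 scale. Among infested animals the breeds did not overlap: the 3 Brahman arrays lay below the 3 Holstein-Friesian arrays. The breed difference there was -0.46 (95% interval -0.89 to -0.03), with a limma adjusted p of 0.363. In that comparison 0.167% of all probe sets passed and 4.16% were lower without overlap. FDPS means ran in the order naive Holstein-Friesian (9.40 ± 0.12), infested Holstein-Friesian (9.32 ± 0.17), naive Brahman (9.05 ± 0.41) and infested Brahman (8.86 ± 0.16), and no neighbours differed beyond their spread.

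The upstream steps around these members were measured by 5 further genes, ACAT2, MVK, PMVK, MVD and GGPS1. PMVK, phosphomevalonate kinase, fell in infested Brahman skin by 1.06 on the log2 scale, from 8.62 to 7.56 (limma adjusted p = 0.00752), and none of the arrays overlapped. Its Holstein-Friesian values were 8.61, 8.56 and 8.88 in naive and 8.12, 7.54 and 8.01 in infested arrays. That difference of -0.79 did not pass (limma adjusted p = 0.0565), although the arrays did not overlap. With the RNA index as a covariate the PMVK call in Brahman animals was lost, at -0.98 (limma adjusted p = 0.0858). In Holstein-Friesian animals PMVK passed without infested Holstein-Friesian 1 (limma adjusted p = 0.0459), without infested Brahman 1 (0.0293), without both of these arrays (-0.91, 0.0164) and with array weights (0.00867). One of 3 probe sets of mevalonate kinase, MVK, fell in Brahman animals by 0.78 (limma adjusted p = 0.0361) and did not pass when any 1 of naive Brahman 1 or 3, infested Brahman 1 or 2 or naive Holstein-Friesian 2 was left out. The MVK call was also lost with the replicate block (limma adjusted p = 0.0535) and with the RNA index as a covariate (-0.48, limma adjusted p = 0.399). The other MVK probe sets did not pass in either breed, nor did ACAT2, MVD or GGPS1.

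Squalene synthase, FDFT1, commits isoprenoids to sterol synthesis, and its 3 probe sets gave 3 different pictures. Probe set Bt.21724.2.S1_a_at stood at 7.91, 7.91 and 7.53 in naive Holstein-Friesian and at 7.94, 7.66 and 7.98 in naive Brahman arrays. The infested Holstein-Friesian animals gave 5.37, 7.72 and 7.49, and the infested Brahman animals 4.05, 5.93 and 5.82. The infested Brahman arrays were thus all below the naive ones, and infested Holstein-Friesian 1 stood with them. In Brahman animals it fell by 2.59 on the log2 scale, 6.03-fold, from 7.86 ± 0.18 to 5.27 ± 1.06, with an SE of 0.60 (limma adjusted p = 0.0138). It did not pass without naive Brahman 3 (adjusted p = 0.0518). The Holstein-Friesian difference was -0.93 (95% interval -2.24 to 0.39, limma adjusted p = 0.404), and -0.18 without the pair of infested arrays of lowest RNA index, among them infested Holstein-Friesian 1.

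The same FDFT1 probe set moved with RNA integrity. The 4 arrays with an index of -2.07 or less were the 4 with values under 6, and the lowest value, 4.05, was in the array of lowest index, -4.91. The other 8 arrays, with an index of -1.39 or more, lay between 7.49 and 7.98. With the index as a covariate the Brahman difference was -0.72 and did not pass (limma adjusted p = 0.294). Without infested Brahman 1 and infested Holstein-Friesian 1, the 2 arrays of lowest index, it fell by 1.98 on the log2 scale in Brahman animals (limma adjusted p = 0.000124). In that fit the breed difference in the infestation effect was -1.80 (limma adjusted p = 0.00598), against -1.67 (limma adjusted p = 0.662) with all arrays. Over all probe sets, that comparison had 1131 calls in the fit without these arrays and 1 with all of them. The part of RNA integrity in this result was not tested beyond these values.

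The 2 other FDFT1 probe sets were not called. Probe set Bt.21724.1.S1_at read 8.61, 8.03 and 8.27 in naive and 9.16, 8.35 and 8.27 in infested Holstein-Friesian arrays. Brahman arrays read 8.30, 8.12 and 8.29 when naive and 8.83, 9.19 and 8.29 when infested. Naive and infested arrays overlapped in both breeds, and the highest 2 of the 12 values were in infested Brahman 2 and infested Holstein-Friesian 1. Differences were 0.29 in Holstein-Friesian (95% interval -0.31 to 0.89) and 0.53 in Brahman animals (-0.07 to 1.13), neither past the threshold. Without infested Holstein-Friesian 1 the former was 0.01. The latter was 0.04 with the RNA index as a covariate, and with array weights it passed as a rise of 0.73 (limma adjusted p = 0.0303), opposite in sign to the called FDFT1 probe set. Bt.21724.3.A1_at stayed between 3.33 and 3.71 on all 12 arrays, under the low-signal quantile. Its infested Holstein-Friesian arrays lay below the naive ones by 0.19 on average (limma adjusted p = 0.385), so the 3 probe sets share no direction in either breed.

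**Figure D2:**
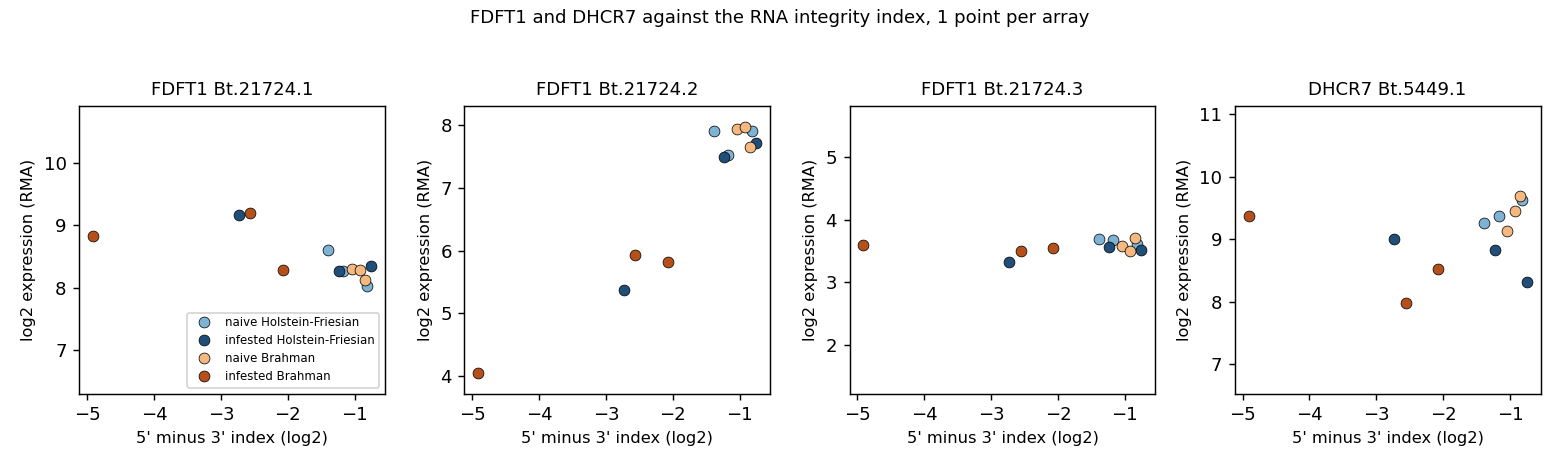
Log2 expression of the 3 FDFT1 probe sets and of DHCR7 on the vertical axis against the 5' minus 3' index of each array on the horizontal axis, with 1 point per array coloured by group and the same vertical span in all panels. The 4 arrays with an index of -2.07 or less hold the 4 lowest values of Bt.21724.2.S1_a_at, while DHCR7 in the array of lowest index stands at 9.38, within the naive range.

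SQLE, the oxygen-dependent epoxidase and a rate-limiting step, was not called in any comparison. It read 9.63, 9.20 and 9.37 in naive and 9.63, 9.68 and 10.07 in infested Holstein-Friesian arrays. Among Brahman animals it read 9.83, 9.76 and 9.04 in naive and 9.87, 10.26 and 9.23 in infested arrays. The infested means were higher in both breeds, by 0.39 in Holstein-Friesian (95% interval -0.23 to 1.01, limma adjusted p = 0.458) and by 0.25 in Brahman animals (-0.37 to 0.87, limma adjusted p = 0.57). Groups overlapped in each case. The Brahman direction of SQLE rested on single arrays: the difference was -0.01 without naive Brahman 3, 0.01 without infested Brahman 2 and 0.53 without infested Brahman 3. The 4 means of SQLE ran from 9.40 ± 0.22 in naive Holstein-Friesian to 9.79 in both infested groups, with no neighbours apart beyond their spread.

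DHCR7, which reduces 7-dehydrocholesterol to cholesterol and so also sets the supply of the vitamin D precursor in skin, had the lowest infested means relative to naive among the single-probe-set members. Its values were 9.26, 9.63 and 9.37 in naive and 9.0, 8.32 and 8.83 in infested Holstein-Friesian arrays, which did not overlap. They were 9.13, 9.69 and 9.46 in naive and 9.38, 7.98 and 8.53 in infested Brahman arrays, where infested Brahman 1 lay within the naive range. The differences were -0.70 in Holstein-Friesian (95% interval -1.40 to -0.01) and -0.80 in Brahman animals (-1.49 to -0.10). Neither passed, with limma adjusted p of 0.221 and 0.0967. Without infested Brahman 1, the array of lowest RNA index, the Brahman difference was -1.17 and passed (limma adjusted p = 0.0103). Without infested Brahman 2 it was -0.47 and did not pass (limma adjusted p = 0.284). Leaving out the 2 arrays of lowest index, DHCR7 passed in both breeds, at -0.85 (limma adjusted p = 0.0352) and -1.17 (limma adjusted p = 0.00544). With the index as a covariate it was -0.85 in Holstein-Friesian (limma adjusted p = 0.0579) and -1.53 in Brahman animals (limma adjusted p = 0.0263). The 2 naive means were both 9.42, and the infested means were 8.72 ± 0.35 and 8.63 ± 0.70, so breeds did not differ beyond their spread in either state.

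Around DHCR7, the other sterol ring enzymes measured were LSS, CYP51A1, TM7SF2, MSMO1, NSDHL and EBP. LSS, which closes squalene epoxide into lanosterol, fell in both breeds on 2 of its 3 probe sets. Probe set Bt.22285.2.S1_at fell from 7.73 to 6.78 in Holstein-Friesian (limma adjusted p = 0.0224) and from 8.02 to 6.48 in Brahman animals (limma adjusted p = 0.000921). Its infested arrays were at 6.81, 6.85 and 6.69 and at 6.36, 6.61 and 6.47, and the lowest naive value of either breed was 7.57. LSS probe set Bt.22285.1.A1_at fell by 0.86 and by 0.81 on the log2 scale, and the third, Bt.17801.1.A1_at, stood at -0.06 and 0.35 without passing. In Holstein-Friesian animals both LSS calls were lost when any 1 of animals 1 and 2 of the naive group or 2 and 3 of the infested group was left out, and that of Bt.22285.1.A1_at also when naive animal 3 was. In Brahman animals the call of Bt.22285.1.A1_at was lost without naive Brahman 3 (limma adjusted p = 0.0596). With the RNA index as a covariate Bt.22285.2.S1_at kept its Brahman call, at -1.40 (limma adjusted p = 0.0144), and Bt.22285.1.A1_at lost it, at -0.69 (limma adjusted p = 0.157). The latter also lost it in a fit to the 6 Brahman arrays alone (limma adjusted p = 0.0631).

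NSDHL, a decarboxylating dehydrogenase that acts on sterol C4, fell in infested Brahman skin from 9.23 to 8.53 (limma adjusted p = 0.00708), whichever array was left out. Its Holstein-Friesian difference of -0.52 did not pass in the main fit (limma adjusted p = 0.0541). It passed with array weights (-0.61, limma adjusted p = 0.00455), cyclic loess (-0.58, 0.0243) and the RNA index as a covariate (-0.56, 0.0265). Without infested Holstein-Friesian 1 it also passed, at -0.66 (limma adjusted p = 0.0199). The sterol reductase TM7SF2 fell 3.84-fold in Brahman animals (limma adjusted p = 0.0133), with 6.61, 8.31 and 8.19 in the infested arrays against 8.86, 10.23 and 9.85. Without infested Brahman 1 it fell by 1.39 on the log2 scale in place of 1.94, and with the RNA index as a covariate it did not pass (limma adjusted p = 0.241). In Holstein-Friesian animals TM7SF2 stood at -0.98 (limma adjusted p = 0.232) and passed in a fit to that breed's 6 arrays, both without a replicate block (limma adjusted p = 0.0406) and with one (0.0361). Its Brahman call was also lost in a fit to the 6 Brahman arrays (limma adjusted p = 0.0617) and without naive Brahman 2 (0.0531) or 3 (0.054). CYP51A1, the lanosterol demethylase, had higher infested means in both breeds, by 0.37 and 0.67, without passing. MSMO1 and EBP did not pass. Of the 7 ring enzymes with DHCR7 included, 1 fell in Holstein-Friesian and 3 fell in Brahman animals on at least 1 probe set, and the median differences were -0.67 and -0.70. By probe set that was 2 of 9 and 4 of 9, beside 2.34% and 10.2% lower over all probe sets. Both Holstein-Friesian calls and 2 of the 4 Brahman calls were LSS probe sets, so these counts are not of separate genes. With the probe set of highest mean per gene, the medians were -0.10 and -0.20 over the mevalonate and isoprenoid enzymes. They were 0.34 and 0.39 over FDFT1 and SQLE, and -0.22 and -0.09 over the regulators.

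**Figure D3:**
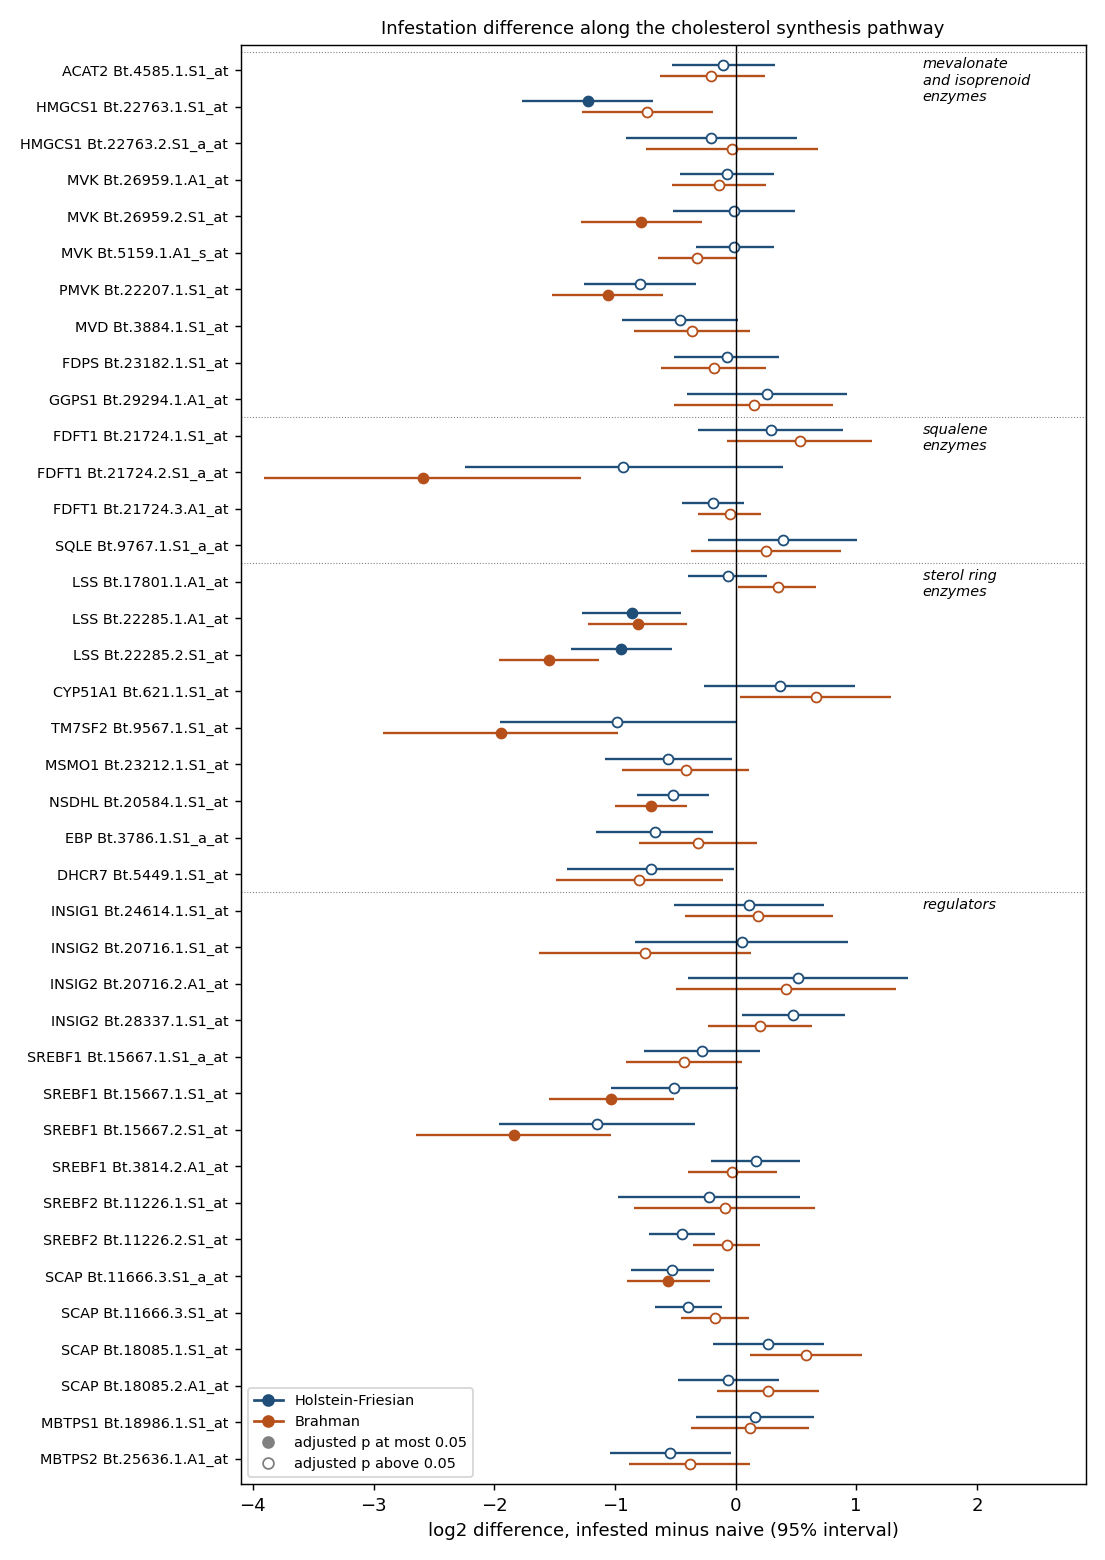
Infested minus naive log2 difference, with its 95% interval from limma, for the 39 probe sets of the 23 measured pathway genes in order of the pathway, in Holstein-Friesian (blue) and Brahman (orange) animals; filled points passed the adjusted threshold. No filled point lies above 0, and the filled points include PMVK, LSS, TM7SF2 and NSDHL beside the 2 member probe sets of HMGCS1 and FDFT1.

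INSIG1, the sterol-sensing brake on SCAP, was not called either. Its values were 9.78, 9.19 and 9.98 in naive and 9.55, 9.65 and 10.08 in infested Holstein-Friesian arrays. In Brahman animals they were 9.43, 9.36 and 8.83 in naive and 9.76, 9.56 and 8.88 in infested arrays. The groups overlapped in both breeds. Differences with infestation were 0.11 in Holstein-Friesian (95% interval -0.51 to 0.73) and 0.19 in Brahman animals (-0.42 to 0.81). Neither direction was stable: INSIG1 stood at -0.12 in Holstein-Friesian animals without naive Holstein-Friesian 2, and at -0.14 in Brahman animals with the RNA index as a covariate. The Brahman means were lower than the Holstein-Friesian ones among naive animals, by 0.44 (95% interval for Brahman minus Holstein-Friesian -1.06 to 0.17), and among infested animals by 0.36 (-0.98 to 0.26). Neither passed. In order, infested Holstein-Friesian (9.76 ± 0.29), naive Holstein-Friesian (9.65 ± 0.41), infested Brahman (9.40 ± 0.46) and naive Brahman (9.21 ± 0.33) were not apart beyond their spread.

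In the main fit the regulators that INSIG1 works with showed calls in Brahman animals alone, and the breed difference in these effects passed for none of them. In other fits a probe set of SREBF1 and one of SCAP also passed as lower in Holstein-Friesian animals. SREBF1, which encodes the SREBP1 factors, fell on 2 of 4 probe sets in infested Brahman skin, by 1.03 and by 1.84 on the log2 scale (limma adjusted p = 0.0137 and 0.00752). The SREBF1 probe set with the larger fall stood at -1.15 in Holstein-Friesian animals (limma adjusted p = 0.0985) and passed there in a fit to the 6 arrays of that breed, without a replicate block (limma adjusted p = 0.0295) and with one (0.0373). That probe set also passed in Holstein-Friesian animals with array weights (limma adjusted p = 0.0116) and with the RNA index as a covariate (-0.96, limma adjusted p = 0.0437). With the RNA index as a covariate neither SREBF1 probe set passed in Brahman animals, and the one with the smaller fall did not pass without naive Brahman 3 (limma adjusted p = 0.0603) or in a fit to the 6 Brahman arrays (0.0562). SREBF2, whose SREBP2 product acts mainly on cholesterol genes, did not pass on either of 2 probe sets. One of 4 SCAP probe sets fell in Brahman animals, by 0.56 (limma adjusted p = 0.0305), and did not pass after each array was centred on its median (limma adjusted p = 0.0515) or without any 1 of naive Brahman 1, 2 or 3 or infested Brahman 1. That call was also lost with the RNA index as a covariate (-0.32, limma adjusted p = 0.393) and in a fit to the 6 Brahman arrays (0.0857). The same SCAP probe set stood at -0.53 in Holstein-Friesian animals (limma adjusted p = 0.0781). It passed there with array weights (limma adjusted p = 0.0114), without infested Brahman 1 (0.0299) and without the 2 infested arrays of lowest RNA index (0.0251). INSIG2 did not pass on any of 3 probe sets, and neither did the activating proteases MBTPS1 and MBTPS2.

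Counting all the pathway's other genes, 17 of 25 listed were measured, with 30 probe sets. In Holstein-Friesian animals 2 of the 30 probe sets fell and none rose, both of LSS, against 2.34% of all probe sets that fell. In Brahman animals 9 of 30 fell and none rose, against 10.2% that fell. By gene, with the probe set of highest mean, 1 of 17 and 5 of 17 fell, and the medians were -0.46 and -0.36. Without the 2 arrays of lowest RNA index, 11 and 10 of the 30 probe sets passed in Holstein-Friesian and Brahman animals, and with the index as a covariate 7 and 4 did. Calls over all probe sets moved too, from 1206 to 4076 and 2022 in Holstein-Friesian animals and from 4753 to 6255 and 1808 in Brahman animals. Leaving out any 1 of naive animals 1 and 2 or infested animals 2 and 3 took the Holstein-Friesian count to 0, leaving out infested Holstein-Friesian 1 to 6 and infested Brahman 1 to 9. Over all probe sets the Holstein-Friesian calls were 157 without naive Holstein-Friesian 1 and 2563 without infested Brahman 1. The Brahman count was 4 without naive Brahman 3, where calls over all probe sets were 2216.

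**Figure D4:**
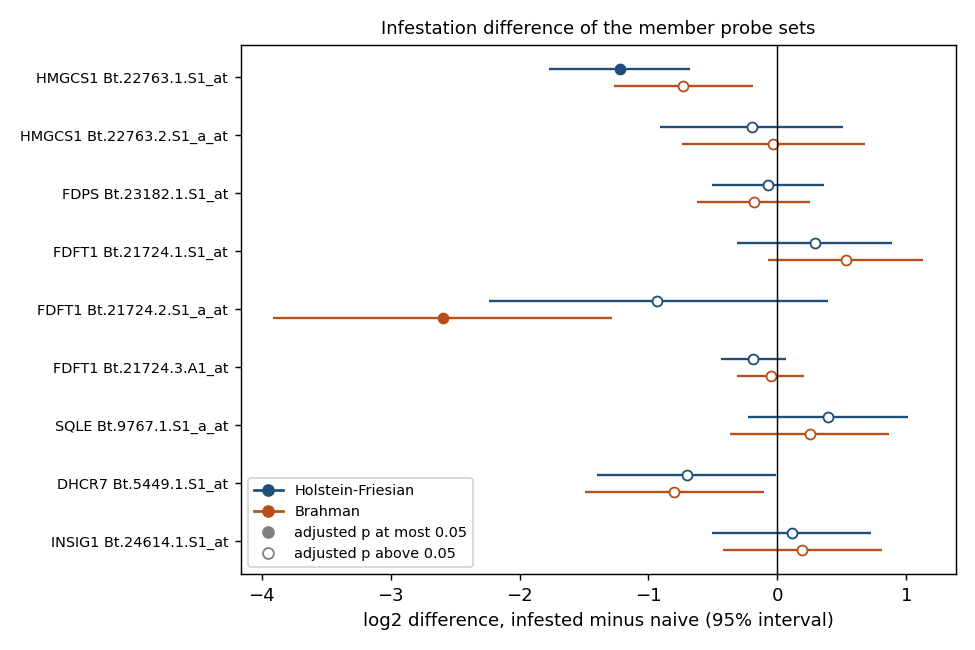
Infested minus naive log2 difference with its 95% interval from limma for the 9 cholesterol synthesis probe sets, in Holstein-Friesian (blue) and Brahman (orange) animals, with filled points for an adjusted p of at most 0.05. Only Bt.22763.1.S1_at of HMGCS1 in Holstein-Friesian and Bt.21724.2.S1_a_at of FDFT1 in Brahman animals are filled, and FDPS has intervals between -0.62 and 0.36.

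Between breeds, 0.025% of all probe sets passed among naive and 0.167% among infested animals. None of the 9 member probe sets passed in either comparison. Nor did any pass for the breed difference in the infestation effect, where 0.00416% of all probe sets passed in limma. At an unadjusted p of 0.05, 0 member probe sets were under it among naive animals, 2 among infested animals (FDPS and Bt.21724.2.S1_a_at of FDFT1) and 0 for the difference in effect, against 4.78%, 13.0% and 7.46% of all probe sets. The comparisons between breeds use the same 12 arrays as those with infestation.

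Beyond the group means, several member genes varied together between animals. Naive Brahman 3 held the lowest of all 12 values for 3 of the 6 genes, FDPS, SQLE and INSIG1, and the lowest of its group for 4 of 6. Infested Brahman 3 was the lowest of its group for 3 of 6, and infested Brahman 2 the highest of all 12 arrays for 3 of 6. The mean of the 6 genes, each centred over the 12 arrays, was -0.36 in naive Brahman 3 and -0.29 in infested Brahman 3, and between -0.12 and 0.17 in the other 10 arrays. By group this score was 0.07 ± 0.09 in naive Holstein-Friesian, 0.04 ± 0.15 in infested Holstein-Friesian, and -0.06 ± 0.26 and -0.06 ± 0.21 in naive and infested Brahman animals. The ranges of all 4 groups overlapped.

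After subtracting each group's mean, Pearson's r over the 12 arrays, described here without a test, was 0.82 for SQLE with INSIG1, 0.72 for SQLE with FDPS and 0.65 for HMGCS1 with FDPS. It was -0.64 for HMGCS1 with DHCR7, and the remaining pairs lay between -0.25 and 0.55. The 12 deviations hold only 8 free values, and the points share the scaling of their arrays. Among 13283 other probe sets with 1 gene symbol, the 8 whose deviations were most like the 6-gene score were those of WDR74 and CYP51A1 (both r = 0.98), RPL31 (0.94), TARP (0.93), WDR33 (0.92), ARR3 (0.89), CHD9 and NEFL (both 0.88). CYP51A1 was the only 1 of these 8 in the pathway lists. Its values were 8.89, 8.83 and 7.99 in naive and 9.21, 9.71 and 8.80 in infested Brahman arrays, so that naive Brahman 3 was again the lowest of 12. The pathway genes next in likeness were MSMO1 (0.76), MVK (0.62) and ACAT2 (0.58), whereas LSS stood at -0.56 and TM7SF2 at -0.03. Over the arrays as they are, without removing group means, the 8 most like were WDR74 (0.84), KIF2C (0.81), TRAF3 (0.79), GGCT (0.77), SELENOH (0.77), P4HTM (0.76), HYAL2 (0.76) and DAPL1 (0.75), none of them in the pathway lists.

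**Figure D5:**
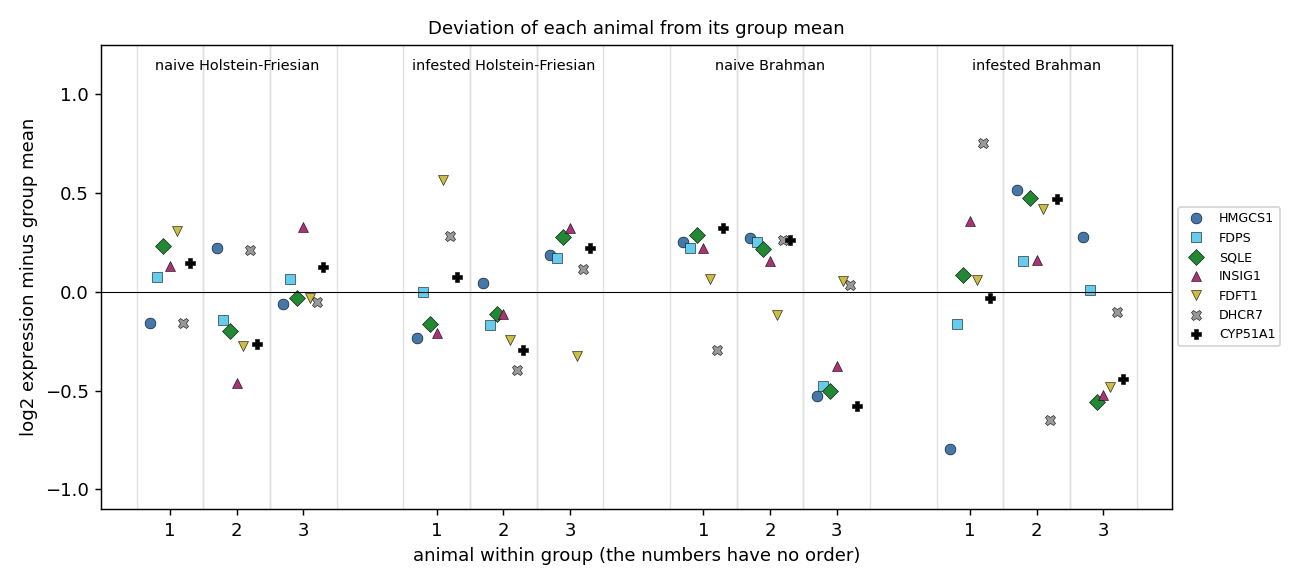
Log2 expression minus the group mean for each animal, by group, for the probe set of highest mean of the 6 member genes and for CYP51A1 (black cross); the numbers on the horizontal axis name animals and have no order. In naive Brahman 3, FDPS, SQLE, INSIG1, HMGCS1 and CYP51A1 all lie below their group means, while FDFT1 and DHCR7 lie near theirs.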

How the data were processed

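Whole-skin RNA of 12 cattle was hybridised to 1 Affymetrix bovine array per animal. The deposited values are log2 RMA expression, 1 per probe set, made by the authors with RMA, per the submitters' processing notes. That the scale is log2 was judged from their range, and the software that ran RMA is not given in the sources used here. Of 24128 probe sets, 112 controls were left out and 24016 tested with no filter. Symbols came from the platform annotation: 13292 probe sets had 1, 86 several and 10638 none. The gene ID of all 9 member probe sets carried the same symbol in the RefSeq table for ARS-UCD2.0. No promoter or protein sequence was used here, and a promoter motif search listed in the design was not run. Signal over background is not known for these values, and the precision is set by there being 3 arrays per group.

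A linear model with a mean for each of the 4 groups was fitted to the 12 arrays with limma 3.58.1 in R 4.3.3 (lmFit, then eBayes, 8 residual and 3.03 prior degrees of freedom). The tests were two-sided, with Benjamini-Hochberg adjustment within each of 5 comparisons. Intervals are 95% intervals from the moderated fit. Each animal is a separate sample, so the spread includes animal differences. The members, lists, comparisons and alternatives were chosen with earlier results of these data known. Named genes were all member probe sets, pathway and sterol genes with a probe set past the threshold in any comparison, LSS, SREBF1, SREBF2, SCAP and INSIG2, and the 8 most like the member score. Items withheld for evaluation are not reported here.

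Alternatives were array weights, a replicate block, cyclic loess, centring on array medians, a filter on mean signal at its 40 percent quantile, a fit to the 6 arrays compared alone, a robust prior with trend, the RNA index as a covariate, and leaving out each array or the 2 infested arrays of lowest index. A block in the 6 Holstein-Friesian arrays was added after seeing the data. Holstein-Friesian arrays with the same number, naive and infested, deviated together over all probe sets (correlations 0.113 to 0.249), which met the pairing rule used. These arrays are of different animals, and no label explains the numbers. Same-numbered naive Holstein-Friesian and naive Brahman arrays had correlations of 0.328, 0.0222 and 0.203. No other pair of groups met that rule. The model was tested on simulated data with the means and spread of the 24016 probe sets, in which 200 were changed. A change of 1 on the log2 scale was recovered for 49% with infestation in Holstein-Friesian and 59% in Brahman animals. Between breeds it was recovered for 43% among naive and 41% among infested animals, and for 15% as a breed difference in the infestation effect. A probe set not called may therefore still differ.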

Additional observations from a re-analysis of the deposited data

How the results depend on the processing

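In the main fit 5.02% of all probe sets passed with infestation in Holstein-Friesian and 19.8% in Brahman animals. Of the 9 member probe sets, 1 passed in each of these comparisons. In Holstein-Friesian animals the count was 0 with the low-signal filter, which removes Bt.22763.1.S1_at of HMGCS1, 2 with array weights and 2 without the infested arrays of lowest RNA index (DHCR7 added). Leaving out 1 array gave 0 to 1. In Brahman animals it was 2 with cyclic loess, 4 with array weights (1 of them a rise, FDFT1 Bt.21724.1.S1_at), 2 with the replicate block (HMGCS1 Bt.22763.1.S1_at added, limma adjusted p = 0.00494) and 2 without the arrays of lowest index, and 0 to 2 without 1 array. With the RNA index as a covariate it stayed at 1, but the probe set was DHCR7 in place of FDFT1. For the breed difference it was 0, and 1 without the arrays of lowest index. Among infested animals it was 0, and 1 with array weights, 1 without the arrays of lowest index and 0 to 1 without 1 array. In both cases that probe set was Bt.21724.2.S1_a_at of FDFT1. The count stayed 0 between naive groups under every setting run. The replicate block changed no other call of a member and left the Holstein-Friesian count at 1, as did the block in that breed's 6 arrays alone. Other pathway probe sets past the threshold ran from 2 to 13 in Holstein-Friesian animals, where 2 passed with all arrays, and from 0 to 9 with 1 array left out. In Brahman animals they ran from 4 with the index as a covariate to 14 with array weights, where 9 passed. Calls over all probe sets also moved, as given above for fits with the index and with arrays left out. Shifts in the member and pathway counts are therefore not read as particular to these genes. No member or pathway probe set named here changed sign while called, although FDFT1 was called as a fall on 1 probe set and, with array weights, as a rise on another. The cause of these shifts was not tested, apart from the filter, which leaves the probe set out. Arrays limit precision, since 3 animals per group give an SE near 0.3 for most member probe sets.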

Other observations

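Genes that move cholesterol in and out of cells were also measured, 14 of 17 listed. SCARB1, the receptor for high-density lipoprotein, fell in infested Brahman skin from 11.98 to 10.90 (limma adjusted p = 0.0144), and did not pass without naive Brahman 2 or 3. APOE, the lipoprotein made by macrophages among other cells, fell from 10.29 to 8.76 (limma adjusted p = 0.0424). That call was lost without any 1 of infested Brahman 1, infested Brahman 3, naive Brahman 2 or naive Brahman 3, among others. The oxysterol receptor gene NR1H3 (LXR alpha) fell on 1 of 2 probe sets, by 0.77 (limma adjusted p = 0.0465), and did not pass after median centring or with naive Brahman 2 or 3 or infested Brahman 2 left out, among others. LCAT, which esterifies cholesterol in plasma lipoproteins, had 1 probe set that fell by 1.10 and 1 that rose by 0.74. Its brightest probe set did not pass, at 0.18 (limma adjusted p = 0.6), so the direction of LCAT is not settled. The call of the probe set that fell was lost in a fit to the 6 Brahman arrays (limma adjusted p = 0.0512). The call of the probe set that rose was lost in most fits with 1 array left out. With the RNA index as a covariate, every Brahman call named in this paragraph was lost. The limma adjusted p was then 0.0708 for SCARB1, 0.392 for APOE and 0.0846 for NR1H3. For LCAT it was 0.315 for the probe set that fell and 0.0846 for the one that rose. Of the 22 probe sets of the 14 genes, 4 fell and 1 rose in Brahman animals in the main fit, against 10.2% and 9.54% of all probe sets. None passed in Holstein-Friesian animals in the main fit. There SCARB1, APOE and the called NR1H3 probe set stood at -0.85, -0.91 and -0.84 (limma adjusted p = 0.0775, 0.293 and 0.0721). Without the 2 infested arrays of lowest RNA index they passed in Holstein-Friesian animals (limma adjusted p = 0.00738, 0.0486 and 0.0239). With array weights SCARB1 and NR1H3 passed in that breed too. At an unadjusted p of 0.05 limma had 8 of the 22 in Holstein-Friesian animals, against 21.6% of all probe sets. CH25H, the 25-hydroxycholesterol synthase of activated macrophages, was picked out after its values were seen. Its brighter probe set averaged 7.43 and 9.44 in naive and infested Holstein-Friesian and 6.27 and 8.48 in naive and infested Brahman animals. The infested Holstein-Friesian arrays read 8.47, 11.38 and 8.46, so their mean was raised by infested Holstein-Friesian 2. The arrays did not overlap in either breed, and neither difference passed (limma adjusted p = 0.133 and 0.0527). The other CH25H probe set stood at 0.35 and -0.09, with overlapping arrays in both breeds, and its highest value, 8.30, was also in infested Holstein-Friesian 2.

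Fatty acid synthesis genes are driven mainly by SREBP1. Of their 13 probe sets 7 fell in Holstein-Friesian and 9 fell in Brahman animals, with medians over 11 genes of -1.01 and -1.40, beside 2.34% and 10.2% of all probe sets that fell. FASN stood at -1.06 in Holstein-Friesian animals without passing (limma adjusted p = 0.0951) and fell by 1.40 on the log2 scale in Brahman animals (limma adjusted p = 0.0159). ELOVL5 and FADS2 rose in Brahman animals, by 0.72 and 0.78. The difference between the fatty acid and the cholesterol lists was not tested.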
